A study of Homo sapiens with 6 samples.

Results

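The genes that write, erase and read DNA methylation were followed in A549 cells, an established human lung adenocarcinoma line, upon knock-down of KMT9α. The 9 genes were taken by symbol from the RNA-Seq count table. DNMT1, DNMT3A and DNMT3B stand as writers, UHRF1 as a partner of maintenance methylation and UHRF2 as the close relative of UHRF1. TET1, TET2 and TET3 stand as erasers and MBD2 as a reader. The 9 genes are among the 23180 gene symbols in the table. Each symbol was represented by its RefSeq transcript with the most counts in all 6 samples together. All 6 samples were A549 cells labelled WT at passage 11. The 3 siControl samples received a control siRNA, and the 3 siKMT9α#1 samples received an siRNA against KMT9α (siRNA_KMT9a in the labels), the catalytic subunit of the histone methyltransferase KMT9. Per the methods of the study, both siRNAs were used at 65 nM and total RNA was taken 3 days after transfection. The model is a transient knock-down by 1 siRNA in 1 line, and RNA only was measured here, not DNA methylation.

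DNA methylation in mammals is placed mainly on the cytosine of CpG pairs. DNMT3A and DNMT3B set new marks, while DNMT1, brought to newly replicated DNA by UHRF1, copies existing marks to the daughter strand. UHRF2 is the close relative of UHRF1, the TET dioxygenases oxidise methylated cytosine as a step towards its removal, and MBD2 binds methylated CpG and brings the NuRD repressor complex.

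Total counts over the represented transcripts lay between 13740097 and 19832395.5 per sample. Values are given as CPM, counts scaled to a common library size with TMM factors, so they are relative to the whole library, and a change in total RNA per cell could not be seen. The knocked-down gene, N6AMT1 (KMT9α), was at 10.2, 10.9 and 11.4 CPM in siControl and at 2.87, 3.22 and 3.35 CPM in siKMT9α#1. The groups did not overlap, and N6AMT1 fell by 1.77 on the log2 scale (SE 0.12, adjusted p = 1.43e-10 in edgeR's quasi-likelihood test, Benjamini-Hochberg adjusted). The deposited transcript NM_013240 lies on the minus strand at chr21:30244513-30257693 (hg19). The sense strand of siKMT9α#1 matches 25 bases in the coding part of exon 3 of N6AMT1, at chr21:30254500-30254524 (GRCh37, minus strand). It is shown because its capitals, complementary to bases 2 to 8 of the guide strand, are the letters that were looked for in the other genes.
N6AMT1 target: acgctgtaacaaagttcACATTCAa

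Of 7 markers of the A549 epithelial line, all were detected, with a summed level of 7563 to 7943 CPM in siControl and 6662 to 6723 CPM in siKMT9α#1. The epithelial adhesion genes EPCAM and CDH1 were low, at means of 3.86 and 3.39 CPM in siControl and of 0.593 and 8.62 CPM in siKMT9α#1. The sum hides opposite differences, since KRT8 had means of 1281 and 528 CPM and AKR1B10 of 1153 and 496 CPM, but ALDH1A1 of 1949 and 3170 CPM. CDKN2A, deleted in this line, was at 0 counts in every sample, which allows up to 3 counts per library, at most 0.218 CPM. Of 4 endothelial markers, 4 were under 1 CPM in every sample, as were 4 of 6 fibroblast and 4 of 6 immune markers, with COL1A2 and CD3E at 0. The immune sum of 81.5 to 88.3 CPM in siControl and 29.0 to 30.6 CPM in siKMT9α#1 was almost all CD68. The part of these differences in the results was not tested.

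All 9 genes passed the filter on low counts and were tested together with the other genes, 13877 in all. At an adjusted p under 0.05, 8 of the 9 genes were called, 6 higher and 2 lower in siKMT9α#1. Of all genes tested, 75.6% were called (37.1% higher and 38.5% lower), so a call alone does not set these genes apart. Groups did not overlap for 7 of the 9 genes, against 77% of all genes. At the threshold of the study (p under 1e-08 and a log2 fold change beyond 0.26), 2 of 9 were higher, TET3 and UHRF2, and 0 were lower, against 13.5% and 10.7% of all genes. Those shares stand for 1878 genes higher and 1479 lower, and scaling by library size alone turned that split to 1516 and 1862. The cut was read here on the quasi-likelihood p of the represented transcripts after the filter. These counts are therefore not those that the study reported. More than a 2-fold change with an adjusted p under 0.05 was found for TET3 (higher, 10.1% of all genes) and TET1 (lower, 10.3%). The median log2 fold change was 0.14 over the 9 genes, the value of MBD2, and -0.01 over all genes. Scaling by library size alone lowered both, to 0.038 for MBD2, still the middle of the 9, and to -0.119 over all genes.

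**Figure D1:**
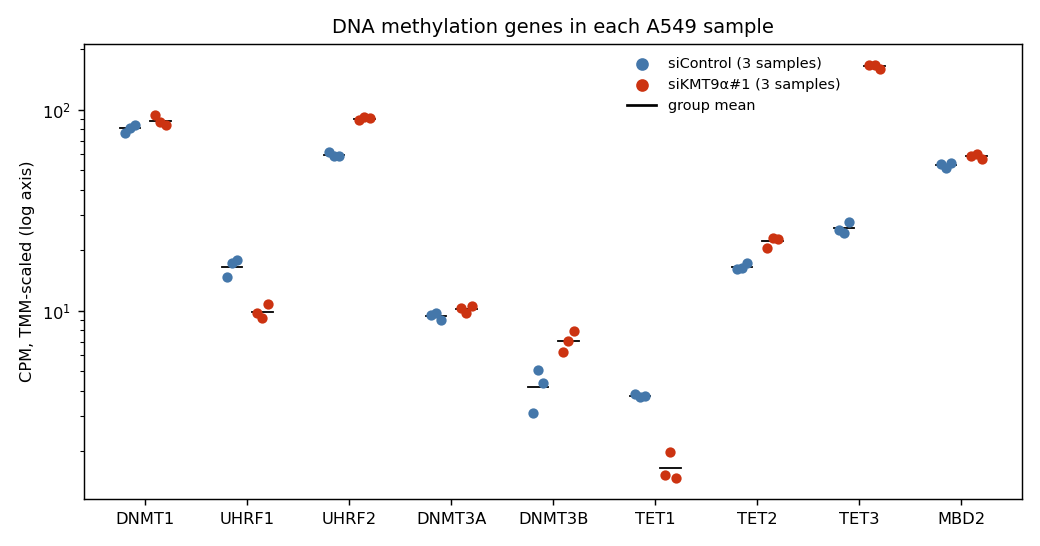
Level of each of the 9 genes in CPM on a log axis, with 1 point per sample for the 3 siControl and the 3 siKMT9α#1 samples and a line at each group mean. The siKMT9α#1 samples of TET3 lie at 159.5 to 167.2 CPM, above the siControl samples at 24.2 to 27.6 CPM, while the groups overlap for DNMT1 and DNMT3A.

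**Figure D2:**
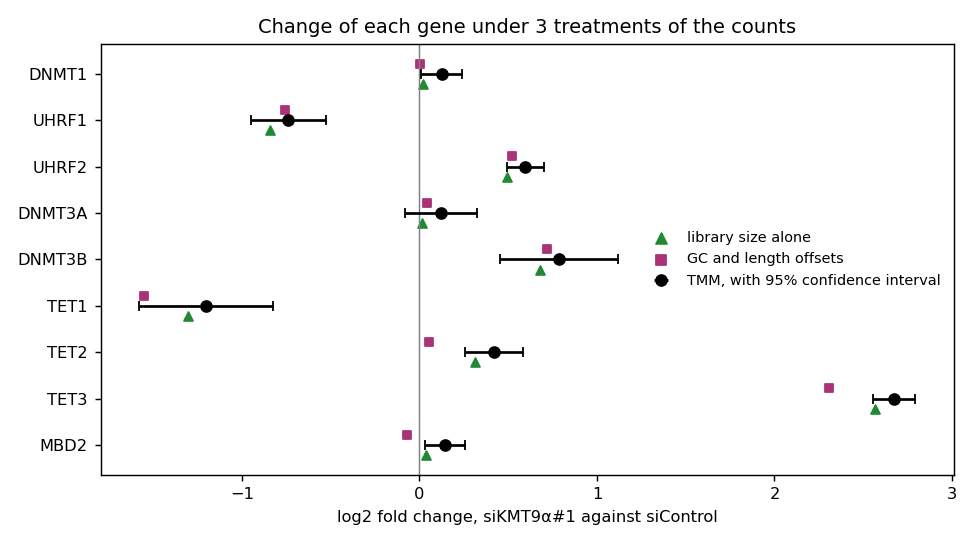
Log2 fold change of siKMT9α#1 against siControl for the 9 genes, with circles and 95% confidence intervals for edgeR's quasi-likelihood fit with TMM scaling, triangles for scaling by library size alone and squares for GC and length offsets. TET3 lies at 2.67 and TET1 at -1.20 with TMM, the interval of DNMT3A spans 0, and the square of MBD2 lies at -0.071.

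The erasers moved apart from each other: TET3 rose 6.38-fold and TET2 1.34-fold, while TET1 fell. TET3, the eraser best known from the fertilised egg, was at 25.3, 24.2 and 27.6 CPM in siControl and at 167.2, 165.9 and 159.5 CPM in siKMT9α#1. The samples of the groups lay far apart and varied little within a group, with means of 25.7 ± 1.71 and 164.2 ± 4.12 (SD, n = 3 each). The log2 fold change was 2.67 (SE 0.057, 95% interval 2.55 to 2.79), with an adjusted p of 6.97e-18 in edgeR's quasi-likelihood test, Benjamini-Hochberg adjusted. With offsets for GC content and transcript length, chosen after the data were seen, the value of TET3 was 2.31, below this interval. TET3 stood at place 59 from the highest among the log2 fold changes of the 13877 genes. Its transcript NM_144993 lies on the plus strand at chr2:74273450-74335302 (hg19) and has 10965 bases.

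TET1, the eraser best known from embryonic stem cells, was the least abundant of the 9 genes per kilobase. It was at 3.82, 3.70 and 3.74 CPM in siControl and at 1.51, 1.97 and 1.46 CPM in siKMT9α#1, which are raw counts of 72, 59.5 and 71.5 and of 20, 27 and 27.5. Every siKMT9α#1 sample was below every siControl sample, and TET1 fell 2.30-fold, a log2 fold change of -1.20 (SE 0.18, 95% interval -1.58 to -0.82, adjusted p = 6.25e-06 in edgeR's quasi-likelihood test, Benjamini-Hochberg adjusted). Of the genes tested, 7.5% had a lower log2 fold change. NM_030625 lies on the plus strand at chr10:70320117-70454239 (hg19).

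TET2, an eraser often mutated in blood cancers, was at 16.0, 16.3 and 17.3 CPM in siControl and at 20.4, 22.9 and 22.8 CPM in siKMT9α#1. The groups did not overlap, and the log2 fold change was 0.42 (SE 0.078, adjusted p = 7.98e-05 in edgeR's quasi-likelihood test, Benjamini-Hochberg adjusted). With offsets for GC content and transcript length, chosen after the data were seen, the value of TET2 was 0.055 with an adjusted p of 0.51 in edgeR's quasi-likelihood test. The GC content of TET2 was 43.0%. Its represented transcript NM_001127208 lies on the plus strand at chr4:106067842-106200960 (hg19). A second transcript of TET2, NM_017628, ends earlier in the gene and had 48.5 to 97 counts, with a log2 fold change of 0.09 (SE 0.15, adjusted p = 0.609 over all transcripts in edgeR's quasi-likelihood test).

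Per kilobase of transcript, which allows levels of different genes to be compared, the summed TET level was 4.43 ± 0.215 CPM per kb in siControl and 17.4 ± 0.335 in siKMT9α#1 (SD, n = 3 each). TET3 made up 52.8% ± 1.02 of this sum in siControl and 86.0% ± 0.976 in siKMT9α#1. The share of TET2 was 38.3% ± 0.776 and 13.0% ± 0.922, and that of TET1 was 8.89% ± 0.444 and 0.990% ± 0.153. The level of TET1 relative to TET3 was 0.167 in siControl and 0.0114 in siKMT9α#1, a log2 difference of -3.88. The ratio of TET2 to TET3 went from 0.724 to 0.151 and that of TET1 to TET2 from 0.231 to 0.0753. Each of these 3 ratios gave p = 0.1 in a two-sided exact permutation test, the smallest that 3 against 3 samples allow, and 0.114 after Benjamini-Hochberg adjustment over the 8 ratios computed.

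**Figure D3:**
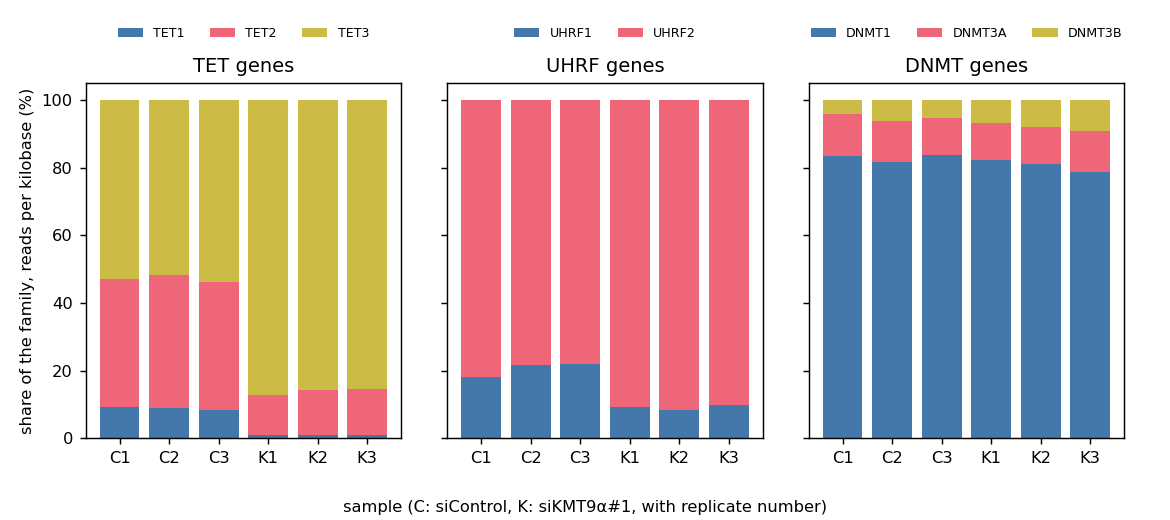
Share of each gene in the summed level per kilobase of its family (percent) in each of the 3 siControl (C) and 3 siKMT9α#1 (K) samples. TET3 makes up 51.8% to 53.8% of the TET sum in siControl and 85.4% to 87.1% in siKMT9α#1, and UHRF1 falls below 10% of the UHRF sum in every siKMT9α#1 sample.

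The UHRF genes split as well. UHRF1, which reads hemimethylated DNA and recruits DNMT1, was at 14.6, 17.3 and 17.8 CPM in siControl and at 9.67, 9.13 and 10.7 CPM in siKMT9α#1. All siKMT9α#1 samples were below all siControl samples, and UHRF1 fell 1.67-fold, a log2 fold change of -0.74 (SE 0.10, 95% interval -0.95 to -0.53, adjusted p = 2.05e-06 in edgeR's quasi-likelihood test, Benjamini-Hochberg adjusted). The transcript NM_001048201 lies on the plus strand at chr19:4909510-4962165 (hg19), where the table also lists MIR4747.

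UHRF2 moved the other way, at 61.3, 58.4 and 59.0 CPM in siControl and 88.5, 91.6 and 90.3 CPM in siKMT9α#1. The replicates were close together and the groups far apart, and UHRF2 rose 1.51-fold, a log2 fold change of 0.60 (SE 0.050, 95% interval 0.49 to 0.70, adjusted p = 1.88e-09 in edgeR's quasi-likelihood test, Benjamini-Hochberg adjusted). NM_152896 lies on the plus strand at chr9:6413151-6507051 (hg19). UHRF2 exceeded UHRF1 3.89-fold per kilobase in siControl and 9.87-fold in siKMT9α#1, and UHRF1 went from 20.5% ± 2.08 to 9.21% ± 0.727 of the UHRF sum (SD, n = 3 each).

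DNMT1, the maintenance methyltransferase, was at 76.8, 81.0 and 84.1 CPM in siControl and at 93.4, 87.1 and 83.9 CPM in siKMT9α#1. The groups overlapped, since siKMT9α#1 replicate 3 lay below siControl replicate 3. The log2 fold change of 0.13 (SE 0.054, 95% interval 0.01 to 0.24) had an adjusted p of 0.0436 in edgeR's quasi-likelihood test, Benjamini-Hochberg adjusted. DESeq2 gave 0.14 with an adjusted p of 0.0677, scaling by library size alone gave 0.020, and without siKMT9α#1 replicate 1 the adjusted p of DNMT1 was 0.2 in edgeR's quasi-likelihood test. NM_001379 lies on the minus strand at chr19:10244022-10305755 (hg19). UHRF1 relative to DNMT1 per kilobase was 0.279 in siControl and 0.152 in siKMT9α#1, a log2 difference of -0.87 (exact permutation p = 0.1, the smallest possible).

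The de novo writers did not move alike. DNMT3B was at 3.08, 5.06 and 4.37 CPM in siControl and at 6.20, 7.02 and 7.95 CPM in siKMT9α#1, from 57.5 to 152.5 raw counts. All siKMT9α#1 samples lay above all siControl samples, and DNMT3B rose 1.73-fold, a log2 fold change of 0.79 (SE 0.16, 95% interval 0.46 to 1.12, adjusted p = 0.000169 in edgeR's quasi-likelihood test, Benjamini-Hochberg adjusted). Its 6 transcripts, which share most exons, gave log2 fold changes of 0.77 to 0.80. NM_006892 lies on the plus strand at chr20:31350191-31397162 (hg19).

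DNMT3A was at 9.50, 9.76 and 8.94 CPM in siControl and at 10.3, 9.72 and 10.6 CPM in siKMT9α#1. The groups overlapped, and the log2 fold change of 0.12 (SE 0.098) did not pass the test (adjusted p = 0.261 in edgeR's quasi-likelihood test, Benjamini-Hochberg adjusted). Its 95% interval of -0.08 to 0.33 holds no change as well as a small rise. NM_175629 lies on the minus strand at chr2:25455845-25565459 (hg19), which also holds MIR1301. Its other transcripts NM_022552 and NM_153759 gave 0.12 and 0.17, and NM_175630, with 10 to 22.5 counts, gave -0.26 (SE 0.28). None of these was called over all transcripts. The ratio of DNMT3B to DNMT3A per kilobase was 0.439 in siControl and 0.697 in siKMT9α#1 with no overlap (exact permutation p = 0.1), while that of DNMT3A to DNMT1 was 0.142 and 0.141 (exact permutation p = 1.0). DNMT1 made up 83.0% ± 1.08 of the DNMT sum in siControl and 80.7% ± 1.78 in siKMT9α#1 (SD, n = 3 each).

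MBD2, the reader, was at 53.3, 51.4 and 53.9 CPM in siControl and at 58.8, 59.9 and 56.8 CPM in siKMT9α#1. The groups did not overlap, but the log2 fold change was 0.14 (SE 0.053, adjusted p = 0.0207 in edgeR's quasi-likelihood test, Benjamini-Hochberg adjusted). With GC content and length offsets, chosen after the data were seen, MBD2 had a log2 fold change of -0.071, so its direction turned with that setting. DESeq2 gave 0.15 with an adjusted p of 0.0515, and scaling by library size alone gave 0.038. Without siControl replicate 2 the adjusted p was 0.0675 and without siKMT9α#1 replicate 2 it was 0.0719 in edgeR's quasi-likelihood test. NM_003927 lies on the minus strand at chr18:51677971-51751158 (hg19) and overlaps SNORA37. A second, shorter transcript of MBD2, NM_015832, had a log2 fold change of 0.29 (SE 0.10, adjusted p = 0.0155 over all transcripts in edgeR's quasi-likelihood test).

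Ordered by level per kilobase, the 9 genes in siControl ran UHRF2, DNMT1, MBD2, UHRF1, TET3, DNMT3A, TET2, DNMT3B and TET1, from 16.6 ± 0.421 to 0.393 ± 0.0063 CPM per kb (SD, n = 3). The samples of neighbours in this order did not overlap, except those of TET3 and DNMT3A. In siKMT9α#1 TET3 took the place after DNMT1, with 14.97 ± 0.375 CPM per kb against 16.7 ± 0.918 for DNMT1 and 11.3 ± 0.305 for MBD2. There UHRF1 and DNMT3A overlapped, as did DNMT3A and TET2.

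Over the 6 samples, the genes whose pattern was most like that of TET3 were HAS3, a hyaluronan synthase, SUSD2 and CA8. Likeness was measured as the root mean square difference of log2(CPM + 1), centred on each gene's mean, among 10887 genes with a mean of at least 5 CPM over the 6 samples, and was 0.042 for HAS3. HAS3 went from 21.1 to 135.5 CPM, while SUSD2, at 2.19 CPM in siControl and 19.2 CPM in siKMT9α#1, passed this limit only through siKMT9α#1. For TET1 the nearest were SPRTN, a protease of DNA repair, QRSL1 and LGALSL, with a difference of 0.029 for SPRTN. Their log2 fold changes of -0.95, -0.83 and -0.92 were smaller in size than the -1.20 of TET1, because the added 1 CPM shrinks the pattern of a gene as low as TET1.

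siRNA guide strands can lower other transcripts through matches of bases 2 to 8 in the 3′ UTR, so the letters ACATTCA were searched on the transcript strand in the 3′ UTRs of GENCODE transcripts. Of 12764 genes tested with a 3′ UTR, 10.9% held these letters and 1.6% held them at 2 or more places. Of the 9 genes 4 held them: TET1 at 2 places and UHRF1, MBD2 and DNMT3B at 1 place each. TET3, UHRF2, TET2, DNMT1 and DNMT3A held none. The median 3′ UTR of all these genes was 978 bases, against 2668 for TET1, 1347 for UHRF1, 3718 for MBD2 and 1453 for DNMT3B. A longer 3′ UTR has more room for the letters, and the shares are not matched for length. TET3 and TET2, without a match, had 5999 and 3284 bases. The sequences are shown because both genes that fell are among those with a match; capitals mark the 7 letters, and the places are on GRCh37, at chr10:70452364-70452388 and chr10:70453058-70453082 (TET1, plus strand), chr19:4961730-4961754 (UHRF1, plus strand), chr18:51681124-51681148 (MBD2, minus strand) and chr20:31396363-31396387 (DNMT3B, plus strand).
TET1, the first place: tgtcctctcACATTCAagtattagc
TET1, the other place: ggtgctataACATTCAaagtgtcag
UHRF1: agatcatttACATTCAattttttta
MBD2: ctctgatttACATTCAactctgatc
DNMT3B: gtcatcatcACATTCAgggctattt
An A followed the 7 letters at both places in TET1 and in UHRF1 and MBD2, but not in DNMT3B. Of these 4 genes, TET1 and UHRF1 fell, DNMT3B rose and MBD2 had a log2 fold change of 0.14. The match is a description, and its part in these values was not tested. N6AMT1 itself held 0 such matches in its 3′ UTR. The corresponding 7 letters for the siControl guide, ACGCAAA, were held by 1.53% of the genes tested and, of the 9, by DNMT3A at 1 place.

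**Figure D4:**
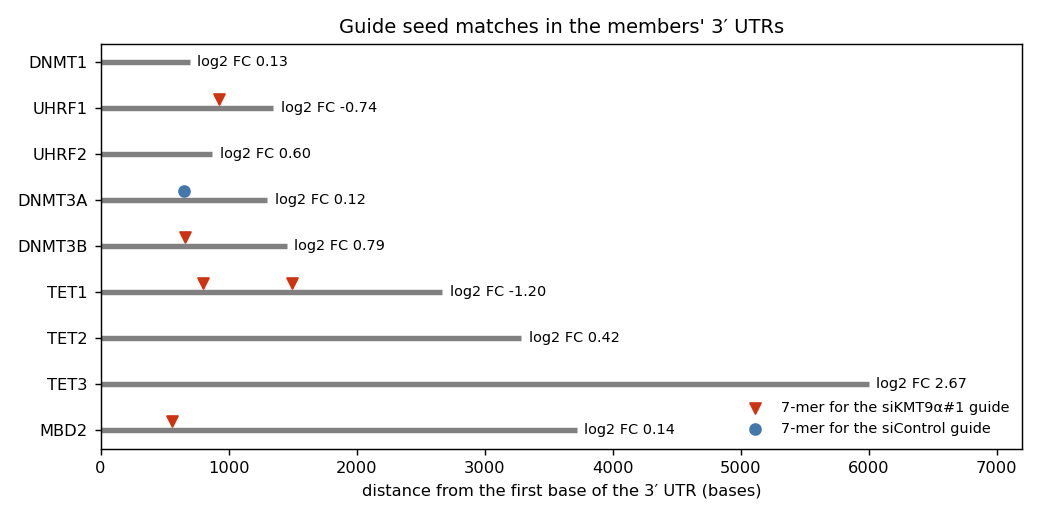
The 3′ UTR of each of the 9 genes as a bar to scale, by distance in bases from its first base, with triangles at the 7 letters for the siKMT9α#1 guide, a circle at those for the siControl guide, and the log2 fold change written beside each bar. TET1 carries 2 triangles and a log2 fold change of -1.20, while the longest 3′ UTR, that of TET3 with 5999 bases, carries none. DNMT3B, MBD2 and UHRF1 carry 1 triangle each, with log2 fold changes of 0.79, 0.14 and -0.74.

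Promoter windows of RefSeq (GRCh38.p14, 250 bases before to 50 after each start) were found for 9 of 9 genes, 20 windows in all. An E2F-type motif, spelled TTTCCCGC, TTTCGCGC, TTTGCCGC or TTTGGCGC and searched on both strands, was held by 3.3% of the 35116 windows of all genes and by 3 windows here, 1 of DNMT1 and 2 of UHRF1. They are shown because DNMT1 and UHRF1 act together in maintenance but had log2 fold changes of 0.13 and -0.74. Capitals mark the motif, and the places are chr19:10194937-10194966 (DNMT1, minus strand), chr19:4909476-4909505 and chr19:4909973-4910002 (UHRF1, plus strand).
DNMT1: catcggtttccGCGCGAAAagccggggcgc
UHRF1, the first start: gccgagttttcGCGGGAAAaaaatcagagc
UHRF1, the second start: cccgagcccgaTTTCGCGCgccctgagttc
In the window of DNMT3B there were 3 CpG, against a median of 14 over all windows, and in those of TET3 there were 45 and 33. Windows were taken by symbol and were not matched to the represented transcripts. The CpG counts may therefore belong to other starts of DNMT3B and TET3 than those of the transcripts measured.

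The genes around these 9 were read from lists, whose counts stand against 37.1% higher and 38.5% lower among all genes tested. Among 10 partners of maintenance methylation, 5 rose, 3 fell and 2 were not called, so that 8 of 10 were called against 75.6% of all genes, with a median log2 fold change of 0.34. LIG1, the ligase that joins Okazaki fragments and binds UHRF1, had a log2 fold change of 1.41, and the PCNA-associated factor KIAA0101 had 1.26. CDCA7L, a relative of the HELLS activator CDCA7, fell from 60.4 to 8.40 CPM, a log2 fold change of -2.84, and DMAP1, a DNMT1-binding protein, had -0.77.

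Of 24 S phase and replication genes, 20 rose, 1 fell and 3 were not called, against 37.1% higher and 38.5% lower among all genes, with a median of 0.63, which was 0.53 under scaling by library size alone. CDC45, low at 1.80 and 4.75 CPM in siControl and siKMT9α#1, had a log2 fold change of 1.40 and GINS2 of 1.36. Both are parts of the replicative helicase, while MCM6, a subunit of the same helicase, had -0.81. These S phase genes are given beside UHRF1, whose level is known to follow the cell cycle; their part in its value was not tested.

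Of 9 other methyl-CpG readers, 7 rose and 2 fell, against 37.1% and 38.5% of all genes, with a median of 0.73. With DESeq2, library size alone, the replicate block or the offsets, 6 were higher and 2 lower. ZBTB4, a zinc finger reader, went from 33.5 to 119.8 CPM (log2 fold change 1.84, overlapping SLC35G6). MBD4, a glycosylase, fell from 52.9 to 25.9 CPM (-1.03), and MBD1 had a log2 fold change of -0.44. Of 14 NuRD subunits, 9 rose, 0 fell and 5 were not called, 9 called of 14 against 75.6% of all genes, with a median of 0.28. MBD3 had a log2 fold change of 0.77 and HDAC2 of 0.65, which was 0.43 with GC and length offsets. MBD3 is counted in both lists. With GC and length offsets 11 NuRD genes were higher and 2 lower, and under scaling by library size alone 7 were higher and 1 lower.

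Of 15 genes for the removal of oxidised cytosine and for TET cofactors, 14 were tested, 5 rose, 7 fell and 2 were not called. Of all genes, 37.1% were higher and 38.5% lower. The median of the list was -0.11, which became 0.09 with GC and length offsets. TDG, the glycosylase that excises the oxidised bases TET enzymes make, went from 41.8 to 129.2 CPM, a log2 fold change of 1.62, and GADD45B had 0.68. SMUG1, another glycosylase, fell from 43.1 to 11.4 CPM (-1.93), and IDH2, which makes the TET cosubstrate, fell from 27.3 to 7.98 CPM (-1.78). CXXC4 did not pass the filter.

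Of 7 regulators of de novo methylation and DNMT relatives, 5 were tested, 1 rose, 3 fell and 1 was not called (37.1% and 38.5% of all genes were higher and lower), with a median of -0.19, while DNMT3L and ZFP57 did not pass the filter. SETD2, the writer of a histone mark that DNMT3 enzymes bind, had a log2 fold change of 1.12, KDM1B, a histone demethylase, -1.35, and TRDMT1, an RNA methyltransferase of the family, -0.45. TRDMT1 was not called with DESeq2 (-0.44, adjusted p = 0.0706) and had -0.72 with GC and length offsets. Of 15 genes for the methyl donor, 13 were tested, 4 rose, 4 fell and 5 were not called, 8 called of 13 against 75.6% of all genes, with a median of 0.04 that was -0.07 under scaling by library size alone. AHCYL2 had 0.72 and MAT2A, the methyl donor synthetase, 0.43 (overlapping GGCX), while SHMT2 had -1.47 (overlapping NDUFA4L2) and MAT1A went from 1.92 to 0.409 CPM (-2.28).

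Of 14 germline genes whose promoters are commonly silenced by methylation, 11 did not pass the filter and 8 of these were at 0 counts in all 6 samples, MAEL, TEX101, SYCP1, SYCE1, BRDT, TDRD1, ASZ1 and SLC25A31, which allows up to 3 counts per library. Of the 3 tested, STK31 fell from 4.19 to 2.47 CPM, a log2 fold change of -0.76, and the other two, HORMAD1 and SYCP3, named after their values were seen, had -0.20 and -0.14 and were not called. Of 16 imprinted genes, 10 were tested, 4 rose, 3 fell and 3 were not called, near the 37.1% and 38.5% of all genes, with a median of 0.03 that was -0.11 with GC and length offsets. GRB10 had a log2 fold change of 0.96 and MEST of 0.61. IGF2, a low gene, went from 4.48 to 1.26 CPM (-1.76), and SNRPN from 179.7 to 76.3 CPM (-1.24). MEST, IGF2 and SNRPN overlap other genes of the table.

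**Figure D5:**
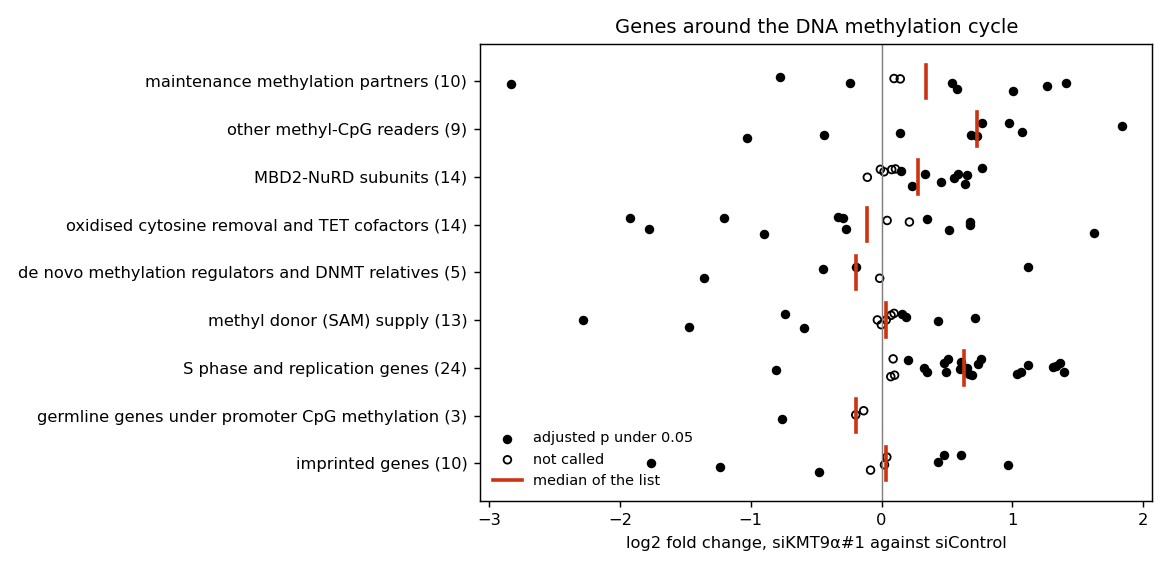
Log2 fold change of siKMT9α#1 against siControl for each tested gene of 9 lists around DNA methylation, with filled points for an adjusted p under 0.05, open points for genes not called and a line at the median. The S phase list has 20 genes higher and 1 lower, and the median of the other methyl-CpG readers is 0.73.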

How the data were processed

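RNA-Seq of 6 A549 samples, 3 siControl and 3 siKMT9a by their titles, was analysed. The 9 genes and all lists were chosen with earlier results of these data known. The authors aligned reads to hg19 with STAR and counted them on RefSeq transcripts with HOMER; the deposited values are estimated counts in steps of 0.5, not normalized, with 36.4% not whole. How shared and antisense reads were counted is not given in the sources used here, so sense and antisense reads cannot be told apart. The table's other columns hold the authors' fold changes and p-values and were not used. Of 38767 rows, 1182 had no symbol or no counts and were left out.

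Counts were rounded and tested with edgeR 4.0.16 (R 4.3.3; TMM, filterByExpr, quasi-likelihood, two-sided, Benjamini-Hochberg over 13877 genes). On simulated counts for this comparison with 200 genes changed by a log2 of 1 among 13802, 194 were called, 0 of them in the wrong direction, with 9 unchanged genes called. That run changed 200 genes only, while 75.6% of all genes tested were called in the data. How calls and scaling behave at such a share was not tested. Totals per sample limit precision. Standard errors were derived from the test, as the size of the log2 fold change over the square root of the F statistic. Intervals were built from these with the t distribution. The labels call the samples biological replicates and name no separate cultures, so p-values measure the spread between these samples. Same-numbered samples did not deviate together (correlations -0.079, 0.022 and -0.08), so no block was used. Named genes are the 9, N6AMT1, the 2 largest called changes with separate groups in each direction per list, genes below the filter, and the 3 nearest patterns to the highest and lowest of the 9; HORMAD1, SYCP3 and the cell type markers were named beside it. A gene named by this rule is not reported here. Alternatives were DESeq2 1.42.0, other scaling and filters, every transcript, a replicate block, leaving out each sample and, chosen after the data were seen, offsets for GC content and length.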

Additional observations from a re-analysis of the deposited data

How the results depend on the processing

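The log2 fold changes of N6AMT1, DNMT3A, DNMT3B, UHRF1, UHRF2, TET1 and TET3 kept their direction and their side of the threshold in all 15 alternatives. Leaving out 1 sample at a time gave 2.64 to 2.74 for TET3 and -1.33 to -1.10 for TET1. GC and length offsets moved both outside these ranges, TET3 to a smaller rise of 2.31 and TET1 to a larger fall of -1.55. DNMT1 (0.13, called) was not called with DESeq2 (0.14), library size alone (0.020), at least 10 counts in every sample (0.11), the replicate block (0.13), GC and length offsets (0.0014) or these with the block (0.0017), nor without siControl replicate 1 or 2 or siKMT9α#1 replicate 1 or 2 (0.087 to 0.14; over all 6 left-out samples 0.087 to 0.17). TET2 was not called with GC and length offsets (0.055) or these with the block (0.050). MBD2 was not called with DESeq2 (0.15) or library size alone (0.038) and turned to -0.071 with the offsets and -0.070 with the offsets and the block; leaving out 1 sample gave 0.13 to 0.17. Of the 9 genes, 3 rather than 6 were called higher with the offsets, with and without the block. At the threshold of the study 1 rather than 2 was higher with the block (1 to 2 leaving out 1 sample, 1 without siKMT9α#1 replicate 2), and lower were 2 without a filter, 1 with the offsets and 2 with the offsets and the block (0 to 1 leaving out 1 sample, 1 without siControl replicate 1). Over all features, every transcript gave 9288 higher and 9609 lower calls, and at the threshold of the study 3830 and 2937; no filter gave 3184 and 2886. The block gave 974 lower, the offsets with the block 2501, and leaving out 1 sample 926 (siKMT9α#1 replicate 2) to 1798. The cause was not tested. At an adjusted p under 0.05 the block changed no other call of the 9 genes. TET1 and DNMT3B rest on the fewest counts, and 3 samples a group limit the ratios.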
